A study of Mus musculus with 20 samples.

Results

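The IFI200 genes of mouse chromosome 1 are described here across blood stem and progenitor cells that differ in Runx2. The members were taken by name from both deposited count tables, 10 of 49997 annotated genes: Ifi203, Ifi204, Ifi205, Ifi207, Ifi208, Ifi209, Ifi211, Ifi213, Ifi214 and Mndal. They were selected on earlier results of these same counts, in which Ifi209 was among the genes higher in homozygous stem cells, and no threshold on a measured value is recorded for the choice. Differences between Runx2 genotypes are therefore given below as descriptions, with their spread and whether they passed a genome-wide threshold, and without p-values. Polyadenylated RNA was sequenced from primary mouse bone marrow cells kept in culture and sorted into 2 populations. HSC were CD201+, CD150+, cKit+, Sca1+ and Lineage-, the surface phenotype of haematopoietic stem cells, and HPC were cKit+, Sca1+ and Lineage- but CD201- and CD150-, a progenitor phenotype. Within each population, 3 libraries came from cells homozygous for a Runx2 knockout (hom), 3 from heterozygous cells (het) and 3 from wild-type cells (WT), 18 libraries in all. The series text names Runx2-flox mice or CRISPR knockout as the source of the loss, the labels do not say which applies to a library, and neither age nor sex is labelled. Nothing in the labels says that the 3 libraries of a group are separate animals or cultures, so the spread between them may be technical.

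IFI200 proteins, also called PYHIN proteins, usually join a pyrin domain, which binds other pyrin domains, to a HIN domain, which binds DNA. Many of the genes are induced by interferons and are best known from macrophages and other myeloid cells, where some family proteins sense foreign or misplaced DNA and others act in the nucleus on transcription and cell growth. The genes arose by repeated duplication, differ in number between mouse strains, and remain alike in sequence.

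The 10 genes spanned 510.445 kb of chromosome 1, from 173521311 to 174031755 (mm10), in the order Ifi214, Ifi213, Ifi209, Ifi208, Ifi207, Ifi204, Mndal, Ifi211, Ifi203 and Ifi205. Ifi209 and Ifi208 lie on the plus strand and the other 8 on the minus strand. Another 6 annotated genes lie between the outermost members. Of these, Ifi203-ps, a family pseudogene, was well covered, Ifi202b had 0 counts in all 18 libraries, and the predicted genes Gm18752, Gm7871, Gm21031 and Gm18445 had at most 11, 1, 1 and 1 counts in any library. The family genes Aim2 and Ifi206 lie just outside the block. No exon of the 10 members overlapped an exon of another annotated gene on the chromosome. Reads that map to several places were not counted, so paralogs that share long stretches are undercounted by an unknown amount. Ifi203, Ifi204, Ifi205, Ifi207 and Mndal, 5 of the 10, also have annotated copies on alternate contigs, and their levels are the least certain.

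The start-site sequences show how alike the genes still are and where they differ, and they are printed to show the element that the family shares. RefSeq (GRCm38.p6) promoters, 250 bases before to 50 bases after the start, were held for 9 of the 10 members, all but Ifi204. An interferon-response-like motif, GAAANNGAAA on one strand or TTTCNNTTTC on the other, was present in 8 of these 9 and in 1079 of 27025 genes in the promoter table (3.99%). Of 29 interferon-stimulated genes with an entry, 19 held it. The form GAAATCGAAA was chosen as the most common match in the members' own promoters. It was found in 6 of the 9 members, a count that the choice favours. With the members included, 16 of the 27025 genes held it (0.0592%). In each line below the 10 letters best matching that form are in capitals, in 50 bases read 5′ to 3′ on the strand of the gene, and they begin between 35 and 134 bases before the start site.
Ifi203 (chr1:173942498-173942547, minus strand): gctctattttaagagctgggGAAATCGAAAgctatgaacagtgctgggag
Ifi213 (chr1:173599316-173599365, minus strand): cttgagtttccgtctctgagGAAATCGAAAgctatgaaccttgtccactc
Ifi207 (chr1:173741821-173741870, minus strand): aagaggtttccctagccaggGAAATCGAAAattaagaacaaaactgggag
Ifi211 (chr1:173913054-173913103, minus strand): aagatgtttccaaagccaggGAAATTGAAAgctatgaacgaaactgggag
Ifi205 (chr1:174031860-174031909, minus strand): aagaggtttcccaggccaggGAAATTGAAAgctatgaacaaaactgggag
Ifi214 (chr1:173536007-173536056, minus strand): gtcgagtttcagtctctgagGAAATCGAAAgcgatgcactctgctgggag
Ifi209 (chr1:173630760-173630809, plus strand): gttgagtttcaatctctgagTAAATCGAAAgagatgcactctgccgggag

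Mndal (chr1:173880194-173880243, minus strand) has the same 50 letters as Ifi203, and Ifi208 (chr1:173673587-173673636, plus strand) the same as Ifi213. Ifi205 and Ifi211 share 46 of 50 positions, Ifi205 and Ifi207 share 44, and Ifi209 and Ifi214 share 45. Positions in the element are counted from 1 at its 5′ end. Ifi205 and Ifi211 carry C6T, which leaves the motif whole. Ifi209 carries G1T, which breaks it, so that Ifi209 is the one member of the 9 without a match. The RUNX motif TGTGGT, or ACCACA on the other strand, was found in the promoters of Ifi205, Ifi207 and Ifi211, 3 of 9 members, and in 18.9% of all genes in the table. These are matches of letters in a short window and were not tested for binding.

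The libraries held 16663497 to 27061457 counts, and mitochondrial genes took 1.46% to 2.59% of them. Levels are CPM, counts scaled to library size with TMM factors, given as mean ± SD of 3 libraries. The limit that a count of 0 allows by counting error, 3 counts, equals 0.111 to 0.18 CPM on library totals alone, without TMM factors. Runx2 followed the labels in every library, at 26.0 ± 1.73 CPM in hom, 85.1 ± 3.90 in het and 122 ± 3.49 in WT HSC, and at 23.5 ± 1.10, 104 ± 4.41 and 126 ± 3.87 in hom, het and WT HPC. Procr, which encodes CD201, stood at 35.2 to 62.5 CPM in the 9 HSC and 4.78 to 7.66 CPM in the 9 HPC libraries. Slamf1, which encodes CD150, was at 15.7 to 20.6 CPM in HSC and 3.19 to 12.9 CPM in HPC. Kit was at 412 to 599 CPM in all libraries, while Ly6a, which encodes Sca1, was listed at 0 in all 18 although the cells were sorted as Sca1+; the cause was not tested. The Y-linked Ddx3y was present in every HSC library (113 to 157 CPM) and at 0 in every HPC library, so donor sex goes with cell type and with the deposited table.

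Ifi203 and Mndal dominated the family in every group. Per kb of exon on chromosome 1, WT HSC held 113 ± 5.43 CPM of Ifi203 and 72.2 ± 3.27 CPM of Mndal, a relative of the human myeloid nuclear differentiation antigen. The same genes stood at 116 ± 3.53 and 78.8 ± 1.26 CPM per kb in WT HPC. In WT HSC the next members were Ifi204, at 3.11 ± 1.01 CPM per kb, and Ifi213, at 2.66 ± 0.527, which do not differ beyond their spread. Ifi208 followed at 1.26 ± 0.337, Ifi209 at 0.482 ± 0.136 and Ifi207 at 0.265 ± 0.0705 CPM per kb. Ifi211, Ifi205 and Ifi214 were near or below the counting floor in WT HSC. In WT HPC the order after the leading pair was Ifi204 (23.2 ± 2.93 CPM per kb), Ifi209 (10.4 ± 0.272), Ifi213 (5.80 ± 0.220), Ifi207 (4.28 ± 0.284), Ifi208 (3.97 ± 0.276), Ifi211 (1.47 ± 0.0951) and Ifi205 (0.152 ± 0.0346), of which Ifi207 and Ifi208 do not differ beyond their spread. Ifi214 was last in both populations.

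**Figure D1:**
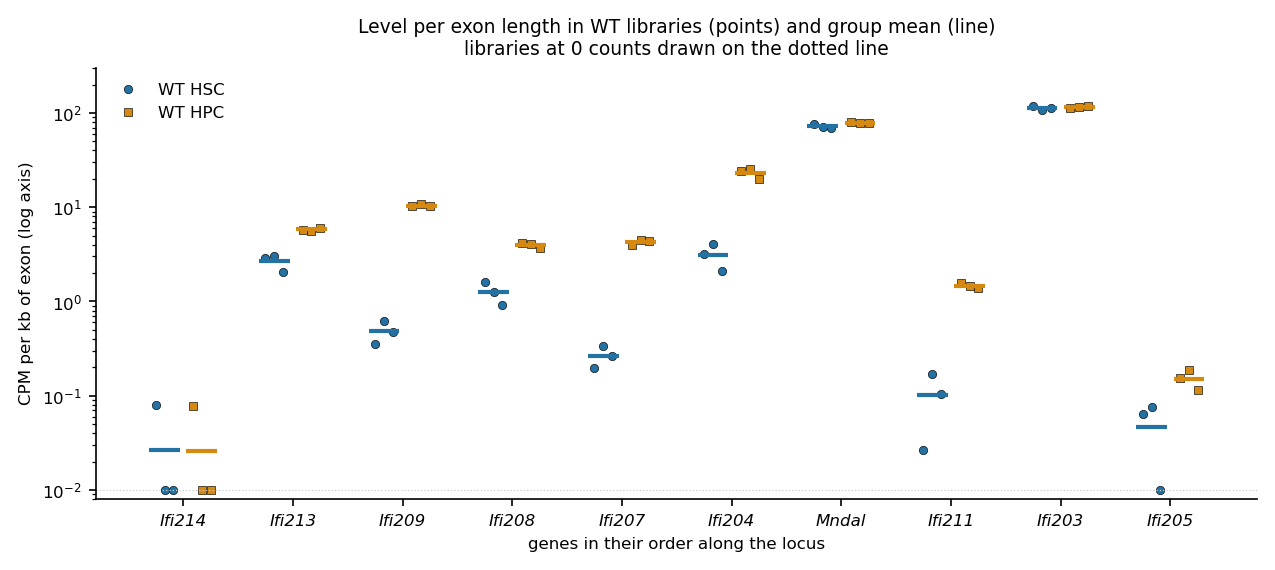
Level of each family gene per kb of exon (log axis) in WT HSC (circles) and WT HPC (squares), 1 point per library with the group mean as a line, genes ordered along the locus and libraries at 0 counts on the dotted line. The group means of Ifi203 and Mndal lie between 72.2 and 116 CPM per kb in both, while Ifi209, Ifi207 and Ifi211 lie far lower in WT HSC.

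Between WT populations, 6 of the 9 members tested were lower in HSC, none was higher, and 3 did not pass (edgeR adjusted p under 0.05 over all genes tested). Of all genes, 54.9% were called in this comparison and 27.2% were called lower. The libraries did not overlap for 7 of the 9 members, and for 64.5% of all genes. Ifi209 was at 1.23, 2.18 and 1.64 CPM in the WT HSC libraries and at 36.0, 37.5 and 35.7 CPM in WT HPC. That is a log2 difference of -4.41 ± 0.25 (SE; edgeR adjusted p = 2.1e-10). Ifi207, which in mice has been linked to cytokine output of macrophages, was at 0.717, 1.23 and 0.963 CPM in WT HSC and 14.5, 16.4 and 16.2 CPM in WT HPC (log2 -3.99 ± 0.30). Ifi211 was at 0.0512, 0.329 and 0.201 CPM in WT HSC against 3.03, 2.79 and 2.67 CPM in WT HPC, with at most 8 counts in a WT HSC library (log2 -3.77 ± 0.36). Ifi211 passed the filter in this fit through the HPC libraries alone, so it had to differ, and its call supports nothing. For these 3 genes no WT HSC library reached a WT HPC library.

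Ifi204, which in mice acts as a sensor of DNA and as a nuclear regulator of growth and differentiation, was at 7.73, 10.0 and 5.10 CPM in WT HSC against 59.5, 62.1 and 48.6 CPM in WT HPC, a log2 difference of -2.90 ± 0.20. Ifi208 differed by -1.66 ± 0.16 and Ifi213 by -1.13 ± 0.28. Ifi203 (-0.04 ± 0.11), Mndal (-0.13 ± 0.11) and Ifi214 (2 counts over 3 WT HSC libraries and 2 counts over 3 WT HPC libraries) did not pass. The 6 calls were kept under all 12 alternatives, but for Ifi211 this supports nothing either. The other family genes divided: Ifi206 was lower in WT HSC (-1.81 ± 0.16), whereas Ifi203-ps (1.24 ± 0.15) and Aim2, the inflammasome sensor of cytosolic DNA (0.56 ± 0.11), were higher. Cell type, donor sex and deposited table cannot be told apart in this comparison. Monocyte and macrophage markers summed to 202 to 226 CPM in WT HSC and 447 to 489 CPM in WT HPC, with 9 of 11 tested lower in HSC, and interferon-stimulated genes had 29 of 37 lower and 1 higher in HSC. Other lists were lower in HSC too. Neutrophil granule markers had 9 of 10 lower and 1 higher, and mast cell and basophil markers 7 of 7 lower. Megakaryocyte markers had 6 of 9 lower and 1 higher, and erythroid markers 5 of 8 lower and 1 higher. B cell markers had 3 of 4 higher and 1 lower. Some markers, such as S100a9 at 0 CPM in WT HSC, passed the filter through HPC libraries, so their calls support nothing. The part of these lists in the family's difference was not tested.

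**Figure D2:**
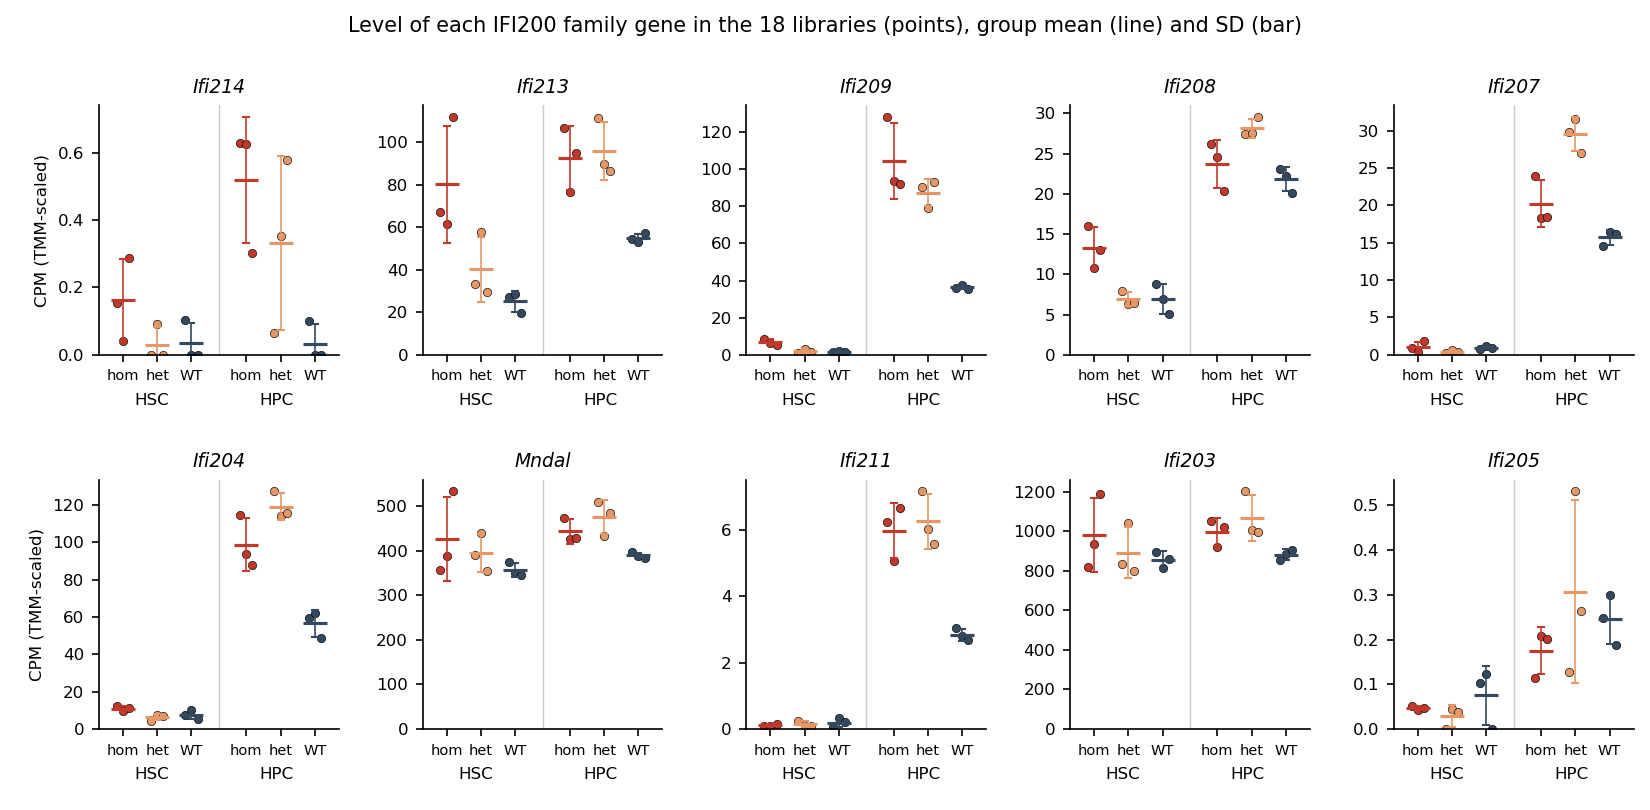
CPM of the 10 family genes (1 panel each, in locus order, axes from 0) in hom, het and WT libraries of HSC (left of each panel) and HPC (right), with points for libraries, lines for means and bars for SD. In HSC, Ifi209 and Ifi208 of all hom libraries lie above all WT libraries, and in HPC both mutant groups lie above WT for Ifi213, Ifi209, Ifi207, Ifi204 and Ifi211.

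In HSC the family differed between hom and WT mainly at 3 neighbouring genes, Ifi213, Ifi209 and Ifi208. Of the 7 members that passed the filter on low counts, 2 were called higher in hom, Ifi209 and Ifi208, none lower, and 5 were not called; of all 14959 genes tested, 1.2% were called higher and 2.01% in either direction. The hom libraries lay above all WT libraries for 3 of the 7 members and for 10.5% of all genes. Ifi209 was known to be higher in hom HSC when the members were chosen. Its call, and its place in these counts and in the median given below, therefore support nothing. Ifi209 was at 8.46, 6.40 and 5.41 CPM in hom HSC and at 1.23, 2.18 and 1.64 CPM in WT HSC, a log2 fold change of 2.02 ± 0.34. The groups did not overlap, and the lowest hom library lay well above the highest WT library. Ifi208 was at 16.0, 10.7 and 12.97 CPM in hom HSC and at 8.80, 6.95 and 5.10 CPM in WT HSC (log2 0.96 ± 0.20), again without overlap. Ifi213 was at 66.9, 61.6 and 112 CPM in hom HSC against 27.3, 28.7 and 19.5 CPM in WT HSC. Its log2 fold change was 1.70 ± 0.33, with hom replicate 3 far above the other libraries, and it narrowly missed the threshold. Ifi213 was called in 4 of 12 alternatives. These were DESeq2, no low-count filter, a filter of 1 CPM in 3 libraries, and a fit of hom and WT HSC alone. It was called in 0 of 6 fits that left out 1 library, and not with RLE factors or a replicate block.

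The remaining tested members had smaller values. Ifi204 had a log2 fold change of 0.54 ± 0.24, with 12.1, 9.39 and 11.1 CPM in hom HSC and 7.73, 10.0 and 5.10 CPM in WT HSC, so that groups overlapped. Mndal (0.28 ± 0.13), Ifi203 (0.22 ± 0.13) and Ifi207 (0.09 ± 0.56) overlapped as well. The median over the 7 members was 0.54, beside 0.00 over all genes tested, and all 7 values were above 0. Ifi205, Ifi211 and Ifi214 had too few reads to test, with at most 3, 8 and 6 counts in any hom or WT HSC library. Neither call held in every fit: without WT replicate 1 or 3 the Ifi209 call was lost (log2 1.84 ± 0.39 and 2.00 ± 0.42), and without hom replicate 2 or WT replicate 2 or 3 the Ifi208 call (1.09 ± 0.22, 0.96 ± 0.25 and 0.78 ± 0.21). The Ifi208 call was also lost when hom and WT HSC were fitted alone (0.96 ± 0.22).

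In het HSC none of the 7 members was called against WT, and 0.0334% of all genes were. DESeq2 called 0 members as well. Ifi209 was at 1.03, 2.98 and 1.75 CPM in het HSC (log2 0.17 ± 0.36 against WT), and Ifi208 at 7.98, 6.36 and 6.41 CPM (0.01 ± 0.21), both within reach of the WT libraries. Ifi213 was at 33.2, 57.6 and 29.6 CPM in het HSC (0.68 ± 0.33), where every het library lay above every WT library. Ifi207, on few counts, was at 0.172, 0.687 and 0.428 CPM in het HSC (-1.21 ± 0.60), every library below WT. For 23.2% of all genes the het and WT libraries did not overlap in either direction. Between hom and het HSC edgeR called 0 members, and 0.0134% of all genes were called. Log2 values were 1.85 ± 0.34 for Ifi209, 1.02 ± 0.32 for Ifi213, 0.95 ± 0.20 for Ifi208 and 0.81 ± 0.25 for Ifi204, 4 members whose hom libraries all lay above the het libraries, as for 6.33% of all genes. With DESeq2, and without hom replicate 3, Ifi208 and Ifi209 were called higher in hom than in het. Hom and het share the WT libraries in their comparisons with WT, so those values are not independent.

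In HPC most of the tested family genes were higher in hom and in het than in WT. Of 9 members tested, 6 were called higher in hom and none lower, beside 4.92% of all 13855 genes called higher and 9.21% in either direction. All hom libraries lay above all WT libraries for 8 of the 9 members, Ifi208 being the exception, and for 13% of all genes. Ifi214 passed the filter on low counts through the mutant libraries, where it is higher, so its call and its place in these counts are partly fixed by the filter and support nothing. Ifi209 was at 128, 93.3 and 92.0 CPM in hom HPC and at 36.0, 37.5 and 35.7 CPM in WT HPC (log2 1.52 ± 0.11). Ifi204 was at 115, 93.6 and 88.00 CPM in hom HPC against 59.5, 62.1 and 48.6 CPM in WT HPC (0.80 ± 0.10), and Ifi211 at 6.22, 5.06 and 6.64 CPM against 3.03, 2.79 and 2.67 CPM (1.08 ± 0.17). For all 3 genes the lowest hom library lay above the highest WT library.

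Ifi213 was at 106, 76.5 and 94.6 CPM in hom HPC and 54.4, 52.9 and 57.0 CPM in WT HPC (log2 0.76 ± 0.12), and Ifi207 at 23.9, 18.3 and 18.5 CPM against 14.5, 16.4 and 16.2 CPM (0.36 ± 0.11). The Ifi207 call was lost without hom replicate 1 (0.23 ± 0.10) and without WT replicate 1, 2 or 3 (0.30 ± 0.12, 0.40 ± 0.13 and 0.39 ± 0.12), and when hom and WT HPC were fitted alone (0.36 ± 0.11). Ifi214 had 29 counts over the 3 hom libraries and 2 over the 3 WT libraries, a ratio of 15.6 scaled by total counts with a 95% exact interval of 3.96 to 135 that covers counting error only. Its call was lost without WT replicate 2 or 3, when the fitted log2 value was 3.25 ± 1.00 and 3.21 ± 0.99. Ifi203 (0.18 ± 0.08), Mndal (0.19 ± 0.07) and Ifi208 (0.12 ± 0.09) were not called. The median over the 9 members was 0.76, beside -0.00 over all genes.

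In het HPC all 9 tested members were called higher than in WT, beside 9.15% of all genes called higher and 16.1% in either direction. The het libraries lay above all WT libraries for 8 of the 9 members, all but Ifi214, and for 17.4% of all genes. The Ifi214 call is again partly fixed by the filter and supports nothing. Ifi209 was at 90.2, 79.1 and 92.8 CPM in het HPC (log2 1.27 ± 0.11 against WT), Ifi204 at 127, 114 and 116 CPM (1.07 ± 0.10) and Ifi207 at 29.8, 31.6 and 27.1 CPM (0.91 ± 0.11). Every one of these libraries lay above the WT libraries given above. Ifi211 differed by 1.14 ± 0.17 and Ifi213 by 0.81 ± 0.12, while Ifi208 (0.37 ± 0.09), Mndal (0.29 ± 0.07) and Ifi203 (0.28 ± 0.08) differed less. The Ifi203 call was lost without het replicate 1 (0.18 ± 0.07) and without WT replicate 1 or 2 (0.25 ± 0.09 and 0.28 ± 0.09), and the Ifi208 call without het replicate 3 or WT replicate 3 (0.33 ± 0.11 and 0.32 ± 0.11). Ifi214 had 18 counts over the 3 het libraries against 2 in WT, a ratio of 10.6 (95% exact interval 2.54 to 94.3), and its call was lost without het replicate 2 or 3 or WT replicate 2 or 3 (fitted log2 3.14 ± 1.13, 2.48 ± 1.20, 2.68 ± 1.07 and 2.64 ± 1.06).

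Between hom and het HPC, Ifi207 was the 1 member of 9 called, lower in hom by -0.54 ± 0.11 on the log2 scale, where 9.4% of all genes were called and 5.77% were called lower. Ifi209 was the 1 well-covered member with a value above 0 (0.26 ± 0.11), and the others ran from -0.27 ± 0.10 for Ifi204 to -0.05 ± 0.12 for Ifi213, with Ifi214 at 0.57 ± 0.61 on few counts. Ifi205 did not pass the filter in HPC, with 2 to 9 counts per library. Its libraries overlapped throughout, at 0.114, 0.208 and 0.201 CPM in hom, 0.128, 0.531 and 0.263 CPM in het and 0.249, 0.299 and 0.188 CPM in WT HPC.

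**Figure D3:**
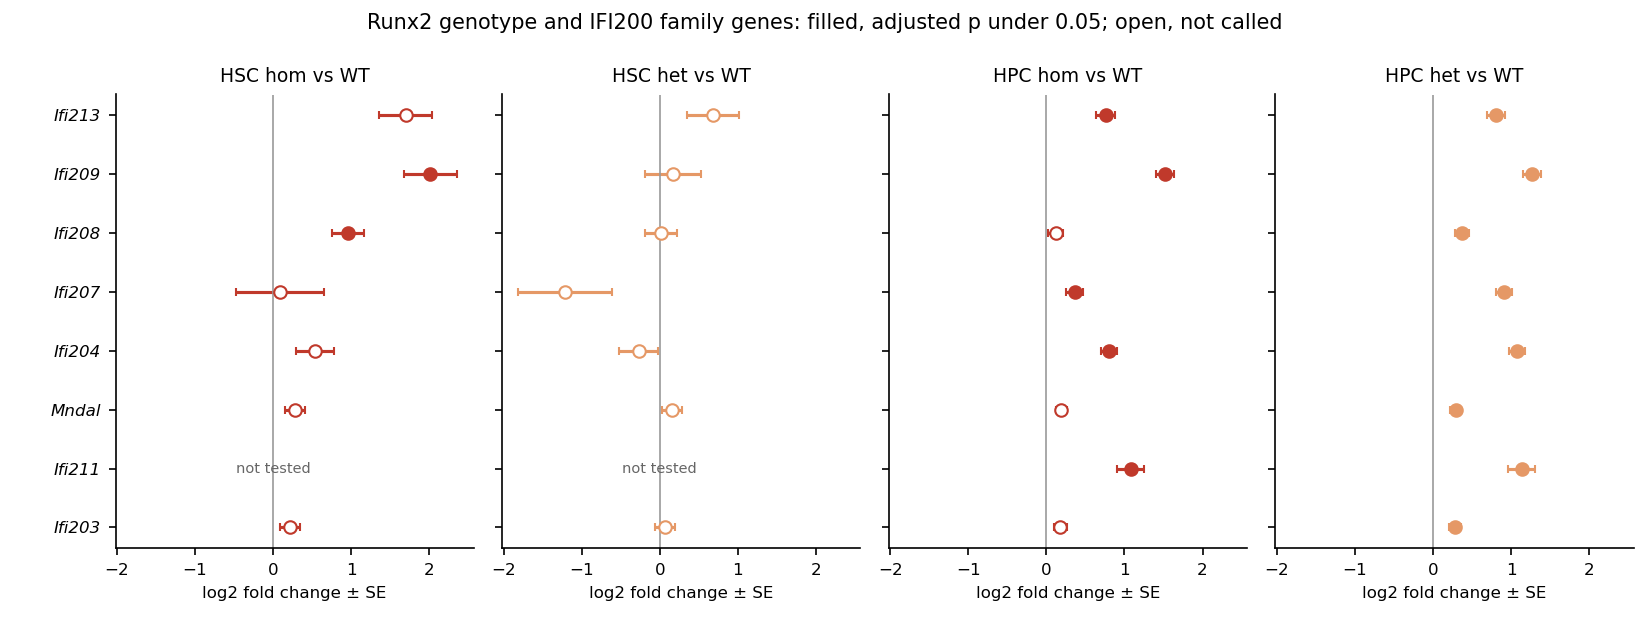
Log2 fold change ± SE of 8 family genes (rows, in locus order) in hom and het against WT, in HSC and in HPC; filled points passed the genome-wide threshold, open points did not, and Ifi205 and Ifi214 are left out for low counts. The HSC hom values are highest at Ifi213, Ifi209 and Ifi208, the HSC het values lie near 0 apart from Ifi213 at 0.68 and Ifi207 at -1.21, and all HPC values are above 0.

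The order of the 6 groups differed between members. Ifi204, Ifi207, Ifi208 and Ifi209 had every HPC group above every HSC group, and Ifi211 too. Ifi213 did not: hom HSC averaged 80.1 ± 27.5 CPM, above WT HPC at 54.8 ± 2.08 CPM and overlapping hom HPC at 92.5 ± 15.1 CPM. For Ifi209 the hom HSC mean of 6.76 ± 1.56 CPM remained far below WT HPC at 36.4 ± 0.95 CPM. Ifi203 groups overlapped with their neighbours throughout the order, with means between 1068 ± 116 CPM in het HPC and 857 ± 41.3 CPM in WT HSC. When the hom effect itself was compared between HSC and HPC, Ifi208 was the 1 member of 9 called (0.82 ± 0.22), where 2.79% of all genes were called. Ifi213 had a larger but less certain value (0.92 ± 0.38) and was not called.

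The make-up of the family total shifted with these values. Ifi203 and Mndal together made up 92.6% ± 0.989 of summed family CPM in hom HSC, 95.9% ± 0.640 in het HSC and 96.6% ± 0.735 in WT HSC. In HPC they made up 80.7% ± 1.52 in hom, 80.8% ± 0.465 in het and 87.1% ± 0.563 in WT. The other 8 genes summed to 112 ± 28.2 CPM in hom, 55.9 ± 16.9 in het and 42.7 ± 9.02 in WT HSC, and to 346 ± 52.0 in hom, 367 ± 23.6 in het and 189 ± 7.16 CPM in WT HPC.

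Relatives outside the 10 followed in part. Ifi206, whose start-site window differs from that of Ifi208 and Ifi213 at 1 of 50 positions, was at 41.3, 32.9 and 37.5 CPM in hom HSC against 19.2, 23.0 and 14.8 CPM in WT HSC and was called higher (log2 1.00 ± 0.18). It was also higher in hom HPC (0.40 ± 0.09) and het HPC (0.51 ± 0.09), but not called in het HSC (0.08 ± 0.18). Ifi203-ps was higher in hom HPC (0.56 ± 0.15) and het HPC (0.54 ± 0.15), and was not called in hom HSC (0.45 ± 0.12). Aim2 was called in no genotype comparison, with -0.17 ± 0.09 in hom HSC, 0.24 ± 0.09 in het HSC, 0.08 ± 0.11 in hom HPC and 0.18 ± 0.11 in het HPC against WT, and -0.40 ± 0.09 in hom against het HSC. It was highest in het HSC, at 96.8, 86.2 and 85.4 CPM, above all hom HSC libraries (58.5, 65.5 and 76.4 CPM) and all WT HSC libraries (74.2, 79.9 and 75.1 CPM). Neither Aim2 nor Ifi202b has the shared element in its promoter. On the strand of the gene, leaving out 20 bases at each end, their closest 10 letters differ from it at 4 positions. Among the members, Ifi209 lacks a motif match and was called higher in hom HSC, and Ifi203 and Mndal hold the element and were not called there. Whether the element has a part in any of these differences was not tested.

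Interferon genes themselves were all but absent. Of 17 genes for type I interferons and interferon gamma, none passed the low-count filter, 14 or 15 had 0 counts in every library of a group, and their sum was at most 0.431 CPM in any library. Among 37 tested interferon-stimulated genes, 9 were higher in hom HSC, 1 in het HSC, 2 in hom HPC and 10 in het HPC than in WT, and none was lower. Of all genes, 1.2% were called higher in hom HSC, 4.92% in hom HPC and 9.15% in het HPC. In het HSC 0.0334% were called in either direction. The 2 of 37 in hom HPC are near the share of all genes. Their summed level was 5761 to 6821 CPM in hom HSC, 5404 to 6477 in het HSC and 5268 to 5545 CPM in WT HSC, so hom libraries lay above WT there. In HPC it was 6955 to 8118 CPM in hom, 8275 to 8484 in het and 6958 to 7923 CPM in WT, and hom overlapped WT. In hom HPC the called genes were Mx2, which encodes an antiviral GTPase (0.62 ± 0.08), and Ifi27l2a (0.48 ± 0.12), beside 6 of 9 family members. Those 6 include Ifi214, whose call supports nothing, and the difference between the lists was not tested. The exons of Ifi27l2a overlap Ifi27 over 11.7% of their length, and its level is uncertain.

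Among 12 genes for interferon receptors and JAK-STAT signalling, 2 were higher in hom HSC, Stat2 (log2 0.51 ± 0.10) and Tyk2 (0.34 ± 0.08). In hom HPC Ifngr1, a chain of the interferon gamma receptor, was higher (0.48 ± 0.06) and Usp18, an inhibitor of type I interferon signalling whose exons overlap another gene over 7.0% of their length, lower (-0.32 ± 0.07). In het HPC 4 were higher, among them Ifnar2 (0.40 ± 0.06) and Stat2 (0.32 ± 0.06). Of 8 interferon regulatory factors, 2 were higher in hom HSC, Irf7 (286 against 162 CPM in WT; 0.85 ± 0.12) and Irf5 (0.48 ± 0.09), and 5 in het HPC. Irf8, which directs monocyte and dendritic cell development, was higher in hom HPC (108 against 66.0 CPM in WT; 0.72 ± 0.08) and in het HPC (141 CPM; 1.10 ± 0.08). Of genes for DNA sensing and inflammasome partners, 0 of 16 were called in hom HSC, 2 of 17 were higher in hom HPC, and 5 were higher and 1 lower in het HPC. The inflammasome receptor gene Nlrp3 was higher in both (1.01 ± 0.16 and 0.98 ± 0.16), and Sting1, the adaptor downstream of cytosolic DNA, in het HPC (0.36 ± 0.07). Of 12 nuclear partners of IFI200 proteins none was called in hom HSC, Cdkn1a was lower in hom HPC (-0.23 ± 0.06), and Trp53 (-0.27 ± 0.06) and Rbl1 (-0.23 ± 0.06) were lower in het HPC. Beside these lists, 2.01% of all genes were called in either direction in hom HSC, 9.21% in hom HPC and 16.1% in het HPC. In HPC the nuclear partners were near those shares.

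Markers of monocytes and macrophages were higher beside the family in both mutant HPC groups. The 12 markers summed to 800 to 896 CPM in hom, 835 to 871 in het and 447 to 489 CPM in WT HPC, and 9 of 11 tested were higher in each mutant group. Ly6c2 was at 16.2 CPM in hom and 1.74 CPM in WT HPC (log2 3.22 ± 0.16), F13a1 at 55.8 against 17.6 CPM (1.66 ± 0.09) and Lyz2 at 363 against 185 CPM (0.98 ± 0.07). Markers of neutrophil granules summed to 2680 to 2865 CPM in hom, 2039 to 2461 in het and 1634 to 1731 CPM in WT HPC, with 8 and 4 of 10 higher in hom and het. Other lists also differed: megakaryocyte markers summed to 455 to 639 CPM in hom, 399 to 501 in het and 654 to 726 CPM in WT HPC, with 2 and 4 of 9 lower in hom and het. Of 10 dendritic cell markers tested, 1 was higher and 4 were lower in hom HPC, and 4 were higher in het HPC. Mast cell and basophil markers summed to 436 to 443 CPM in hom, 338 to 350 in het and 362 to 382 CPM in WT HPC. Of 7 tested, 4 were higher and 2 lower in hom, and 2 were higher and 2 lower in het. Of 8 erythroid markers tested, 2 were higher in hom HPC and 1 was lower in het HPC. Of all genes, 9.21% were called in either direction in hom HPC and 16.1% in het HPC. The part of these lists in the family's higher level in HPC was not tested, and more cells of a type and more RNA per cell cannot be told apart in bulk RNA. In HSC the monocyte list stood at 192 to 218 CPM in hom, 218 to 222 in het and 202 to 226 CPM in WT. There hom and WT overlapped, 0 of 10 markers were higher, and Ccr2 was lower in hom (-1.84 ± 0.30). The part of this list in the family's values in HSC was not tested.

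**Figure D4:**
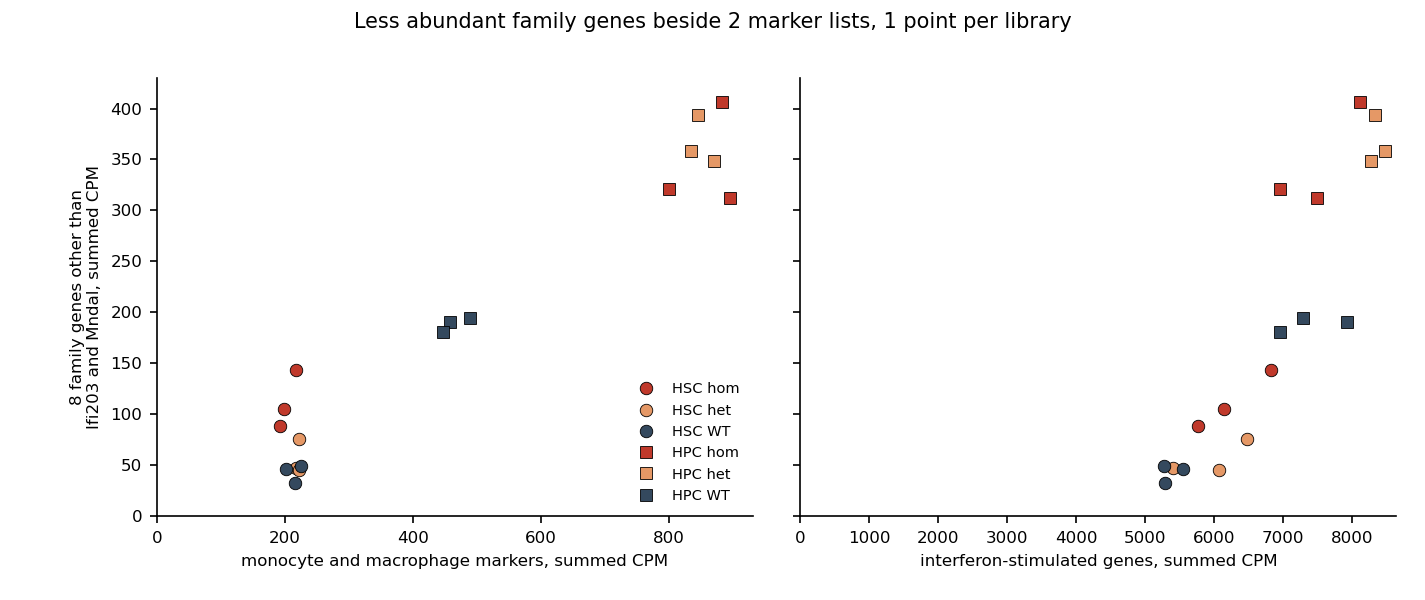
Summed CPM of the 8 family genes other than Ifi203 and Mndal (vertical axis) against summed CPM of monocyte and macrophage markers (left) and of interferon-stimulated genes (right), 1 point per library. On the left the 9 HSC libraries lie between 192 and 226 CPM, and the hom libraries among them lie highest on the vertical axis. Also on the left, the 6 mutant HPC libraries lie above the WT HPC libraries on both axes.

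How closely members followed each other is given as a description over the 9 libraries of each population. Pairwise Pearson correlations of log2 CPM ranged from 0.20 to 0.97 with a median of 0.81 over 36 pairs in HPC, and from 0.22 to 0.94 with a median of 0.44 over 21 pairs in HSC. The points share libraries and genotype groups, which set much of any such value. The genes most like the mean profile of the tested members were Emb, Ppt1, Adgrl4, Adgre1 and Rin2 in HPC (r = 0.99 for each) and Gm51584, Daxx, Gm36375, Parp14 and Gm13840 in HSC (r = 0.94 to 0.95). Adgre1, which encodes the macrophage antigen F4/80, was higher in hom HPC (1.33 ± 0.09) and het HPC (1.45 ± 0.09), and Emb, which encodes embigin, by 0.82 ± 0.07 and 0.90 ± 0.07. In HSC, Parp14, itself induced by interferon, had a log2 value of 0.34 ± 0.10 in hom against WT and Daxx, which encodes a histone chaperone, 0.28 ± 0.07; none of the 5 was called.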

How the data were processed

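RNA-seq libraries of 6 groups (3 each) were used; the CUT&Tag samples were not analysed here. The deposited values are raw read-pair counts per gene, made by the authors with featureCounts 2.0.6 without regard to strand over exons of an mm10 RefSeq annotation, per the file headers. The submitters' processing notes name FastQC, Trim Galore 0.6.10, STAR 2.7.11a and featureCounts 2.0.6, and mm39; positions are given here in mm10, the build of the table headers. Libraries held 16663497 to 27061457 counts.

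One edgeR 4.0.16 quasi-likelihood fit (robust, TMM, filterByExpr, R 4.3.3) per cell type gave genotype comparisons, and one fit of all 18 libraries gave WT HSC against WT HPC and the difference in hom effect. P-values were adjusted (Benjamini-Hochberg) over all genes tested, with 0.05 as the threshold for a call. The fitting code was tested on simulated data. CPM use the TMM factors of the 18-library fit. CPM per kb use exon length on chromosome 1, since deposited lengths add alternate contigs. Errors are SD for levels and SE for log2 fold changes. Alternatives were DESeq2 1.42.0, RLE factors, other low-count filters, a replicate block, fewer groups and leaving out each library. Members and lists were chosen with earlier results of these data known. Named genes are all members, other PYHIN genes, genes inside the locus, Runx2, sort markers, the 5 genes per cell type most correlated with the mean member profile, and up to 4 called genes per list and comparison by p, of which the text gives a selection. Values of some listed genes are not reported here.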

Additional observations from a re-analysis of the deposited data

Results flagged for a closer look

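The effect of the homozygous knockout on Ifi208 differed between the populations: hom minus WT was 0.82 ± 0.22 larger in HSC than in HPC on the log2 scale (edgeR interaction term in the 18-library fit), where 2.79% of all genes were called in that comparison. Ifi208 averaged 13.2 ± 2.63 CPM in hom HSC and 6.95 ± 1.85 CPM in WT HSC, but 23.7 ± 3.04 CPM in hom HPC and 21.8 ± 1.52 CPM in WT HPC. The call was lost in 9 of 12 fits that left out 1 library, with values between 0.63 and 1.01, and with only the 12 hom and WT libraries (0.82 ± 0.25). Cell type goes with donor sex and deposited table here, and these cannot be told apart. The difference was not called for the other 8 members tested, among them Ifi213, whose value was larger but less certain (0.92 ± 0.38). Ifi211 and Ifi214 passed the filter in this fit through HPC libraries and had few HSC reads, so their results in it support nothing.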

How the results depend on the processing

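Of 25 calls on members, 17 were kept under all alternatives run for them, among them all 6 between WT HSC and WT HPC, 6 of 9 in het HPC and 4 of 6 in hom HPC against WT, but neither of the 2 in hom HSC. These counts include the Ifi211 call between WT populations, the Ifi214 calls in hom and het HPC and the Ifi209 call in hom HSC, which support nothing. No member's called direction was reversed. Without the low-count filter 4 members were called in hom against WT HSC, 1 in het against WT HSC, 4 in hom against het HSC, 3 in hom against het HPC and 2 for the difference in hom effect. DESeq2 called 2 in hom against het HSC. Fitting only the 12 hom and WT libraries left 0 for the difference in hom effect. Leaving out 1 library gave 0 to 2 members called in hom against WT HSC, 0 to 2 in hom against het HSC, 4 to 6 in hom against WT HPC, 7 to 8 in het against WT HPC, 1 to 2 in hom against het HPC and 0 to 1 for the difference in hom effect. Shares of all genes called under these alternatives are not reported here, so these counts do not set the members against other genes. With library totals alone the family summed to 1331 CPM in WT HSC and 1368 CPM in WT HPC, against 1255 and 1460 CPM with TMM factors. Replicate numbers did not pair libraries (correlations of -0.13 to 0.14 in HSC and -0.11 to 0.23 in HPC; 2 of 9 and 4 of 9 libraries correlated best with their own number), and a replicate block gave 2 members in hom against het HPC and changed no other count of members called. Ifi205 could not be tested at this depth.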
